A study of Homo sapiens with 6 samples.

Results

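The aminoacyl-tRNA synthetases and their scaffold proteins were examined in OVCAR5, a long-established line of human ovarian carcinoma cells. Cells were kept for 3 days in 100 nM NTX301, which the series title calls a DNA hypomethylating agent (an agent that reduces cytosine methylation), or in the control dimethyl sulfoxide (DMSO). Each treatment had 3 RNA sequencing libraries, and all libraries came from the same line grown in the same medium with fetal bovine serum. Members were chosen by symbol among protein-coding genes, which gave 40 of the 62656 genes in the tables. They were 20 cytosolic enzymes, 17 mitochondrial enzymes (symbols ending in 2) and the 3 scaffold proteins AIMP1, AIMP2 and EEF1E1. All 40 passed the filter on low counts.

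Aminoacyl-tRNA synthetases join each amino acid to its transfer RNA, the step that fixes the reading of the genetic code. Human cells keep separate enzymes, all encoded in the nucleus, for the cytosol and for mitochondria. GARS1 and KARS1 serve both compartments, and glutamine in mitochondria is loaded through a route that starts with EARS2, which is why no mitochondrial partners of GARS1, KARS1 and QARS1 stand among the members. EPRS1 carries the activities for glutamate and proline in a single protein, and the cytosolic enzyme for phenylalanine is built from the subunits FARSA and FARSB. Several cytosolic enzymes sit with AIMP1, AIMP2 and EEF1E1 in the multi-synthetase complex. Many cytosolic synthetase genes are known targets of ATF4, the transcription factor that cells use when amino acids run short.

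The libraries held 22131175 to 25743732 estimated counts. On the second principal component of log2 CPM (counts scaled to a common library total), with 6.34% of the variance, DMSO replicate 3 lay at -34.47 and the other libraries between -5.74 and 22.54. Members called without that library numbered 18 higher and 14 lower, as with it. Nothing in the labels tells whether replicates were separate cultures. The p-values therefore reflect the spread between these 6 libraries, which may be technical. Epithelial markers gave a summed level of 4272 to 4446 TPM (transcript abundance corrected for length and scaled to a common total) with DMSO and 2373 to 2455 TPM with NTX301. WT1, a marker of serous ovarian carcinoma, had too few counts to be tested, and the other 8 of the 9 epithelial markers were tested. Of 6 immune, 6 fibroblast and 5 endothelial markers, 3 of each list had enough counts to be tested, and CD3E and COL1A2 had at most 3 counts summed over the 6 libraries. KRT8 and KRT18 made up most of the epithelial sum, and of the epithelial markers KRT8, KRT18, KRT19, EPCAM and MUC16 fell, CDH1 and MUC1 rose and PAX8 did not pass the test. The immune sum was 44.8 to 51.0 TPM with DMSO and 80.0 to 86.9 TPM with NTX301, carried by CD68 and CD14, which rose, while LYZ fell (a call lost without a scaling factor) and PTPRC, found on all leukocytes, had 0 to 4 counts per library. The fibroblast sum was 1.37 to 1.79 and 5.13 to 5.57 TPM, and the endothelial sum 1.47 to 1.64 and 2.30 to 2.46 TPM. The part of these markers in the results below was not tested.

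The synthetases did not move together. With NTX301, 18 of the 40 members rose and 14 fell at an edgeR adjusted p under 0.05 (Benjamini-Hochberg over 19029 tested genes), and 8 did not pass. Among all tested genes 35.4% rose and 35.1% fell, 70.5% in all, so the members' share of calls was near that of genes at large. The groups did not overlap in 34 members, against 73.7% of all tested genes. A change of 2-fold or more was called in 2 members, both of them mitochondrial enzymes that rose, MARS2 among them, against 13.4% of tested genes that rose and 8.55% that fell by as much. SARS2, at -0.996 on the log2 scale, lay just short of a 2-fold fall. It passed that bound with no filter on low counts (-1.024) and with DESeq2 (-1.002). The median log2 fold change was 0.02 over the cytosolic enzymes and 0.08 over the mitochondrial ones, against 0.00 over all tested genes, and the cytosolic median lay at -0.01 with no filter on low counts. In bulk RNA, fewer cells of a kind and less RNA per cell cannot be told apart.

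These counts depend on how libraries are scaled. Fold changes are relative to the typical gene, and without a scaling factor the median of all tested genes lay at 0.21 on the log2 scale. On that scale 25 members rose and 8 fell, against 46.2% and 24.9% of all tested genes. The falls of SARS1 and VARS1 were then not past the threshold, those of YARS1, EARS2, IARS2 and RARS2 took the opposite sign without passing it, and GARS1 rose. CARS2 and EEF1E1 then also rose by more than 2-fold (log2 1.02 and 1.16), while SARS2 fell by less (-0.79). The share of all tested genes past 2-fold was not counted on that scale.

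**Figure D1:**
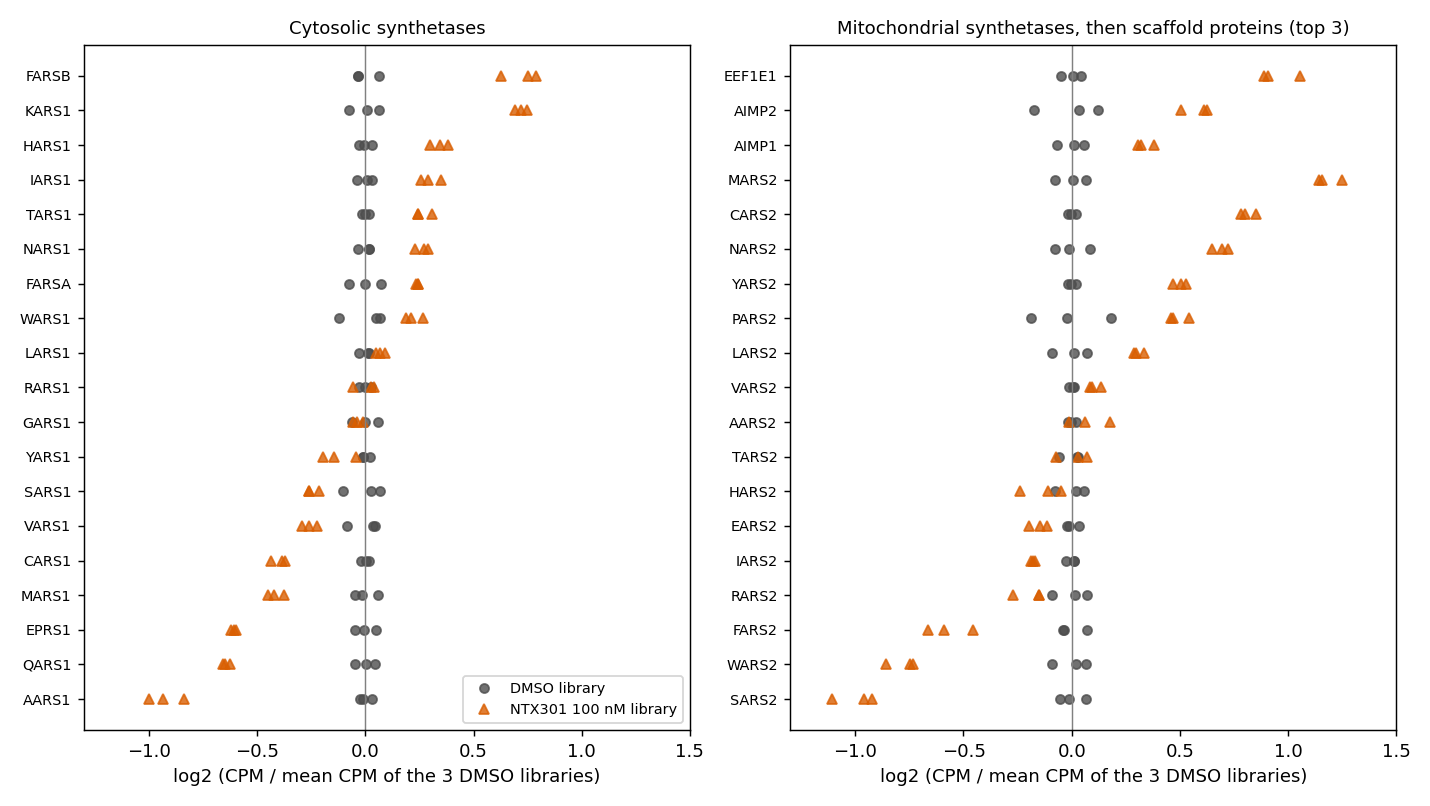
Each row is a named member and each point a library. The horizontal axis is the log2 of its CPM over the mean of the 3 DMSO libraries, with circles for DMSO and triangles for NTX301. AARS1 and SARS2 lie farthest to the left and MARS2 farthest to the right, while the members near 0 overlap with the DMSO libraries or lie close to them.

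Of the 20 cytosolic enzymes, 8 fell and 8 rose. AARS1, the alanyl-tRNA synthetase (ENSG00000090861.17, chromosome 16, 70252295 to 70289543 in GRCh38), fell most among them. It had 330.5, 340.3 and 327 CPM with DMSO and 174, 167 and 186 CPM with NTX301, and every treated library lay far below every control. The log2 fold change was -0.92 ± 0.05 (estimate ± SE, edgeR adjusted p = 5.5e-09). QARS1, the glutaminyl-tRNA synthetase (chromosome 3, 49095932 to 49105135), had 156, 161 and 151 CPM with DMSO and 101, 99.5 and 98.8 CPM with NTX301. The groups were again well apart, and the log2 fold change was -0.65 ± 0.04 (edgeR adjusted p = 2.7e-08). EPRS1, the enzyme for glutamate and proline, went from 141 ± 4.87 to 92.3 ± 0.738 CPM (mean ± SD, n = 3 each).

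The methionine enzyme MARS1 and the cysteine enzyme CARS1 fell by about as much as each other, with log2 fold changes of -0.42 ± 0.04 and -0.40 ± 0.04. Smaller falls were those of VARS1 (valine, -0.26 ± 0.04), SARS1 (serine, -0.24 ± 0.05) and YARS1 (tyrosine, -0.13 ± 0.04), which were lost or changed sign without a scaling factor as given above. YARS1 was also not past the threshold without DMSO replicate 1, NTX301 replicate 1 or NTX301 replicate 2 (edgeR adjusted p = 0.052, 0.074 and 0.095), and its adjusted p ran from 0.0039 to 0.33 over all alternatives.

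FARSB and KARS1 rose most among the cytosolic enzymes. FARSB, the beta subunit of the phenylalanine enzyme (chromosome 2, 222570536 to 222656337), had 77.02, 82.4 and 77.1 CPM with DMSO and 133, 136 and 122 CPM with NTX301. All treated libraries lay above all controls, with a log2 fold change of 0.72 ± 0.05 (edgeR adjusted p = 1.1e-07). FARSA, the alpha subunit of the same enzyme, rose less, from 68.5 ± 3.48 to 80.9 ± 0.202 CPM (log2 0.24 ± 0.04, n = 3 each). KARS1, the lysyl-tRNA synthetase (chromosome 16, 75627474 to 75648643), had 185, 179 and 168.5 CPM with DMSO and 298, 286 and 293 CPM with NTX301. This was a log2 fold change of 0.72 ± 0.04 with no overlap (edgeR adjusted p = 2.8e-08). The other cytosolic enzymes that rose did so by less, from 0.22 ± 0.05 in WARS1 (tryptophan) and 0.27 ± 0.04 in both NARS1 (asparagine) and TARS1 (threonine) to 0.30 ± 0.04 in IARS1 (isoleucine) and 0.34 ± 0.04 in HARS1 (histidine).

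GARS1, RARS1 and LARS1, the enzymes for glycine, arginine and leucine, were among the 4 cytosolic enzymes that did not pass the test. GARS1 had 233.5, 215 and 224 CPM with DMSO and 215.5, 223 and 219 CPM with NTX301. RARS1 had 123, 125.5 and 128 CPM with DMSO and 129, 128 and 121 CPM with NTX301. In GARS1 and RARS1 the groups overlapped, whereas all NTX301 libraries of LARS1 (165, 161 and 163 CPM) lay narrowly above all DMSO libraries (157, 152 and 156.5 CPM). Without a scaling factor GARS1, RARS1 and LARS1 were called higher, with log2 fold changes of 0.17, 0.21 and 0.28 in this order.

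Of the 17 mitochondrial enzymes, 7 rose and 6 fell. MARS2, for methionine (chromosome 2, 197705369 to 197708387), had 13.1, 13.7 and 12.4 CPM with DMSO and 28.9, 29.2 and 31.1 CPM with NTX301. Its log2 fold change was 1.18 ± 0.06 (edgeR adjusted p = 9.9e-09), and every treated library held more than 2-fold the level of any control. CARS2, for cysteine (chromosome 13, 110641412 to 110713603), had 30.8, 31.1 and 31.7 CPM with DMSO and 56.3, 53.7 and 54.4 CPM with NTX301 (log2 0.81 ± 0.04, edgeR adjusted p = 1.4e-08). NARS2 (asparagine), YARS2 (tyrosine), PARS2 (proline) and LARS2 (leucine) also rose, by 0.69 ± 0.06, 0.50 ± 0.05, 0.48 ± 0.11 and 0.30 ± 0.05 on the log2 scale.

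SARS2, the mitochondrial enzyme for serine (ENSG00000104835.15, chromosome 19, 38915266 to 38930896), had 38.4, 35.4 and 36.4 CPM with DMSO and 19.4, 18.9 and 17.03 CPM with NTX301. The log2 fold change of -0.996 ± 0.061 (edgeR adjusted p = 3.7e-08) was the lowest of all 40 members. WARS2 (tryptophan) went from 24.5 ± 1.37 to 14.3 ± 0.664 CPM and FARS2 (phenylalanine) from 10.4 ± 0.453 to 7.03 ± 0.512 CPM (n = 3 each). IARS2, RARS2 and EARS2, for isoleucine, arginine and glutamate, fell slightly, with log2 fold changes of -0.18 ± 0.04, -0.19 ± 0.06 and -0.15 ± 0.04. DESeq2 left RARS2 uncalled (adjusted p = 0.056), and the adjusted p of RARS2 ran from 0.0027 to 0.82 over all alternatives.

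The 4 mitochondrial enzymes that did not pass were those for histidine, threonine, alanine and valine. HARS2 had 37.5, 40.0 and 41.05 CPM with DMSO and 33.5, 38.2 and 36.6 CPM with NTX301. TARS2 had 17.6, 18.8 and 18.7 CPM with DMSO and 17.5, 18.7 and 19.3 CPM with NTX301. AARS2 had 14.3, 14.1 and 14.5 CPM with DMSO and 16.2, 14.9 and 14.2 CPM with NTX301. The groups overlapped in these, while VARS2 lay at 30.3, 30.8 and 30.7 CPM with DMSO and narrowly higher, at 33.6, 32.6 and 32.4 CPM, with NTX301. Without a scaling factor TARS2, AARS2 and VARS2 were called higher, with log2 fold changes of 0.22, 0.28 and 0.31. HARS2 was called lower by edgeR with no filter on low counts, with a term for the replicate number, and without DMSO replicate 1 or NTX301 replicate 2 (adjusted p = 0.035, 0.028, 0.031 and 0.039), and its adjusted p ran from 0.028 to 0.42 over all alternatives.

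Enzymes that load the same amino acid in the cytosol and in mitochondria were set side by side. Of 18 such pairs (FARS2 is paired with each subunit of its cytosolic partner, and EPRS1 with EARS2 and with PARS2), 8 were called in opposite directions, 4 with the cytosolic enzyme higher and the mitochondrial lower and 4 the other way round. FARSA and FARSB, both paired with FARS2, were among those with the cytosolic enzyme higher, so 1 call of FARS2 entered both. In NARS1 and NARS2 both rose, in SARS1 and SARS2 and in EPRS1 and EARS2 both fell, and in 7 pairs at least 1 enzyme did not pass the test. Of all tested genes 35.4% were called higher and 35.1% lower, and no share over arbitrary pairs of genes was computed. The widest gap was for methionine, where MARS1 fell by 0.42 and MARS2 rose by 1.18 on the log2 scale. The ratio of MARS1 to MARS2 in TPM, a scale that corrects for transcript length, was 8.89, 7.65 and 8.20 in the DMSO libraries and 2.80, 2.68 and 2.46 in the NTX301 libraries. For cysteine the order of the enzymes turned over, since the ratio of CARS1 to CARS2 in TPM was 1.97, 1.94 and 1.89 with DMSO and 0.826, 0.866 and 0.82 with NTX301. In the other direction, the ratio of WARS1 to WARS2 in TPM was 6.25, 6.90 and 5.30 with DMSO and 11.7, 11.6 and 13.3 with NTX301. These ratios were not tested. A ratio within a library does not depend on the scaling factor, but the calls do: without it, 7 pairs were called in opposite directions. In 3 of these the cytosolic enzyme was higher and in 4 the mitochondrial one. IARS1 with IARS2 and YARS1 with YARS2 were then no longer among them, and AARS1 with AARS2 was.

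**Figure D2:**
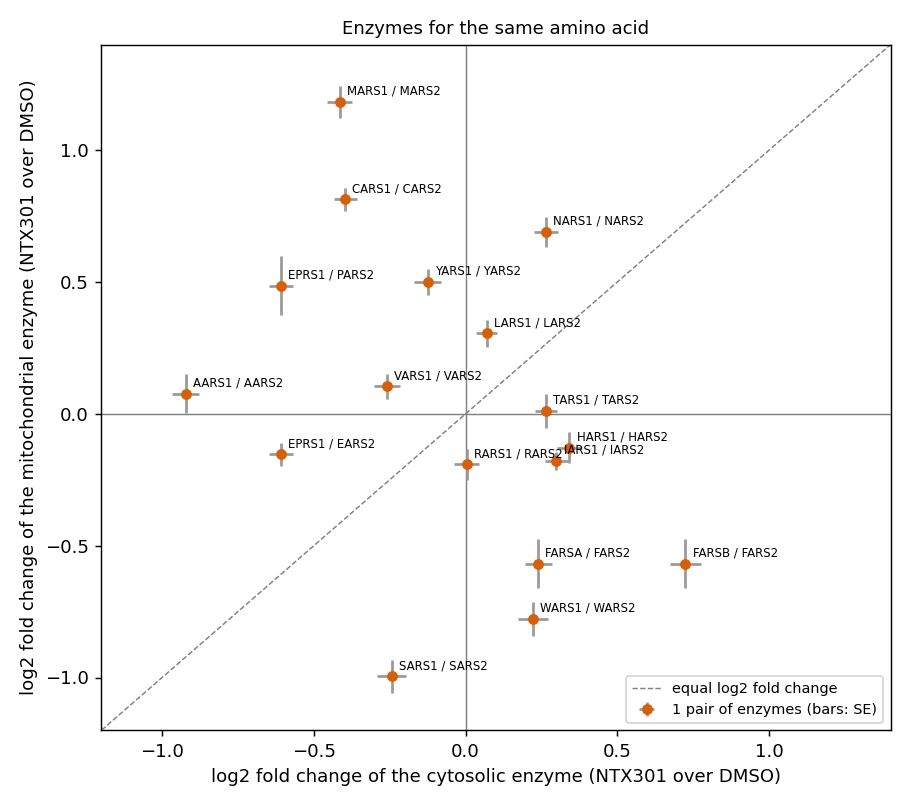
Each point is a named pair of enzymes for the same amino acid, with the log2 fold change of the cytosolic enzyme on the horizontal axis, that of the mitochondrial enzyme on the vertical axis, and standard errors as bars. Points far above the dashed line of equal change include MARS1 with MARS2 and CARS1 with CARS2, and those far below it include FARSB with FARS2 and WARS1 with WARS2.

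The scaffold proteins all rose. EEF1E1, also known as AIMP3 (chromosome 6, 8073360 to 8102578), had 19.01, 17.8 and 18.5 CPM with DMSO and 34.6, 38.3 and 34.2 CPM with NTX301 (log2 0.95 ± 0.06, edgeR adjusted p = 5.1e-08). AIMP2 (chromosome 7, 6009245 to 6023834) had 57.2, 53.8 and 46.6 CPM with DMSO and 81.1, 80.3 and 74.6 CPM with NTX301 (log2 0.58 ± 0.07, edgeR adjusted p = 8.8e-06). AIMP1 (chromosome 4, 106315544 to 106349226) had 61.7, 67.4 and 65.2 CPM with DMSO and 84.2, 80.02 and 80.8 CPM with NTX301 (log2 0.33 ± 0.05, edgeR adjusted p = 3.2e-05). No treated library of any of these genes reached down to a control. The enzymes that these scaffolds hold did not follow them as a group. Of the 11 genes of the multi-synthetase complex 5 rose, which are the 3 scaffolds with KARS1 and IARS1, while EPRS1, QARS1 and MARS1 fell and 3, RARS1 and LARS1 among them, did not pass the test. These shares, 45.5% higher and 27.3% lower, stand beside 35.4% and 35.1% of all tested genes. Without a scaling factor 8 of the 11 rose and 3 fell, beside 46.2% and 24.9% of all tested genes.

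Synthetases fall into 2 structural classes with unrelated catalytic folds. Of 9 cytosolic class I enzymes 2 rose and 5 fell (median log2 fold change -0.13), and of 10 cytosolic class II enzymes 6 rose and 2 fell (median 0.25). Of 9 mitochondrial class I enzymes 4 rose and 4 fell (median 0.10), and of 8 mitochondrial class II enzymes 3 rose and 2 fell (median 0.04). EPRS1, which joins a domain of each class, was left out. Among all tested genes 35.4% rose and 35.1% fell. Whether the classes differ was not tested, and without a scaling factor the cytosolic class I median was 0.08 and the class II median 0.46.

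On the length-corrected scale of TPM, the cytosolic enzymes summed to 1666 ± 18.8 TPM with DMSO and 1937 ± 55.9 TPM with NTX301, and the mitochondrial ones to 337 ± 4.72 and 439 ± 9.11 TPM (n = 3 each). TPM carries no scaling factor, so levels in the treatments include the shift of the typical gene given above. The cytosolic sum was thus 4.96, 4.96 and 4.91 times the mitochondrial sum in the DMSO libraries and 4.41, 4.37 and 4.45 times in the NTX301 libraries, with no overlap. With DMSO the order was led by AARS1 (162 ± 4.70 TPM), GARS1 (159 ± 4.83 TPM) and KARS1 (151 ± 4.84 TPM), and AARS1 and GARS1 did not differ beyond their spread. With NTX301 KARS1 led with 288 ± 10.4 TPM, GARS1 followed with 181 ± 5.33 TPM, and AARS1 was the tenth at 98.03 ± 8.06 TPM. PARS2 (3.91 ± 0.483 TPM) and AARS2 (4.97 ± 0.167 TPM) were the lowest with DMSO. AARS1 thus stood 32.3, 33.7 and 31.5 times above AARS2 with DMSO and 14.9, 15.5 and 18.2 times with NTX301. The tables give FARSB a length of 6761 bases in every library, so its TPM (19.4 ± 0.925 with DMSO) is low beside FARSA (64.8 ± 2.97), although these subunits had similar CPM.

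**Figure D3:**
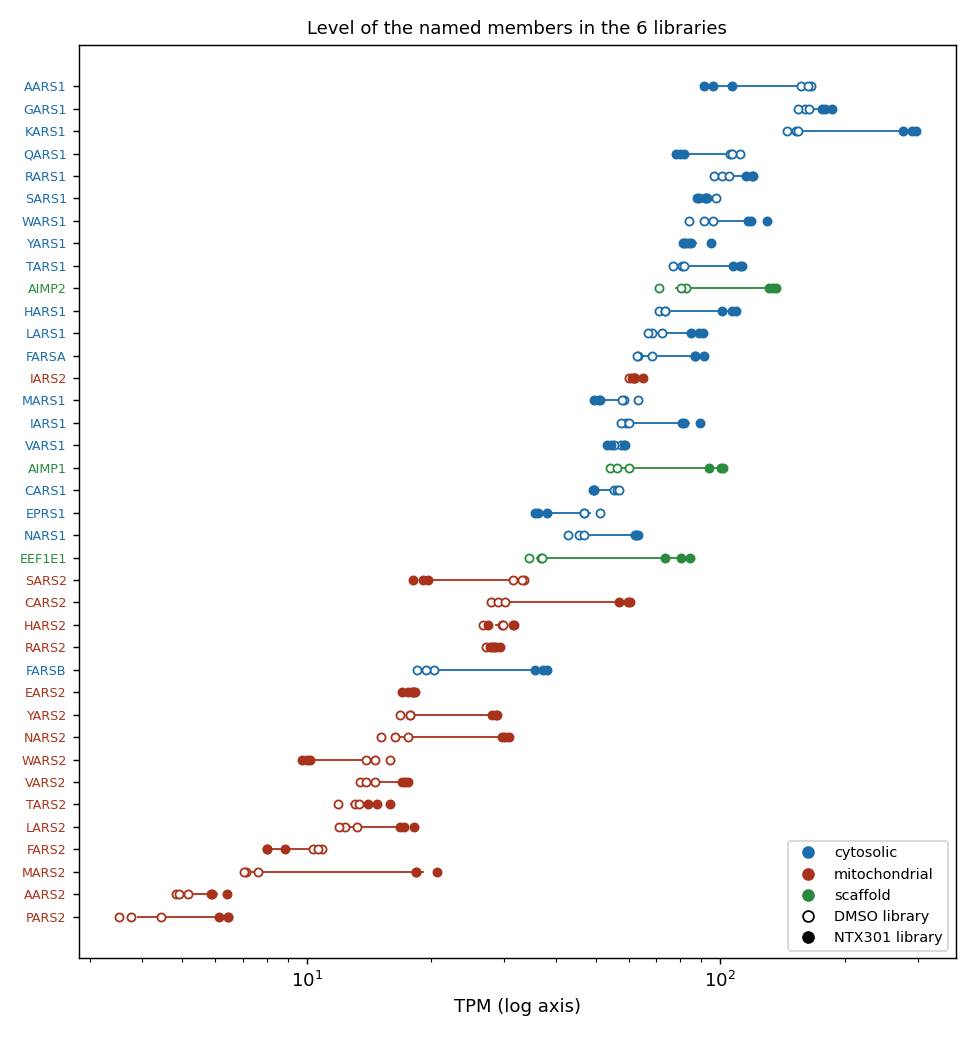
Each row is a named member, ordered by its mean level with DMSO, and each point a library, in TPM on a log axis, with open circles for DMSO and filled circles for NTX301. Cytosolic enzymes fill the upper part and mitochondrial enzymes the lower part, with IARS2 above and FARSB below most of their own kind, and KARS1 leads with NTX301.

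The promoters of cytosolic synthetase genes are known to carry an element bound by ATF4 with C/EBP proteins, so the RefSeq promoter windows (250 bases before to 50 after each start, GRCh38.p14) were searched for TGATGNAA on both strands. Windows matched 33 of the 40 members by symbol. The letters were found in 7 of 16 cytosolic genes and 1 of 14 mitochondrial genes, against 4.46% of 27305 genes with windows of the same length. The 4 members below have the largest changes among those with a match, and are shown so that the letters and their surroundings can be compared. AARS1, MARS1 and CARS1, which fell, hold TGATGCAA, and YARS2, which rose, holds TGATGGAA. Each stretch is read 5′ to 3′ on the strand of the gene, and capitals mark the match (TTGCATCA is TGATGCAA read on the other strand).
AARS1: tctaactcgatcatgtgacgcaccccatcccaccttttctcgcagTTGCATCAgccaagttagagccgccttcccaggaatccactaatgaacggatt
MARS1: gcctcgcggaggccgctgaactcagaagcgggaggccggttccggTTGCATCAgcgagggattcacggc
CARS1: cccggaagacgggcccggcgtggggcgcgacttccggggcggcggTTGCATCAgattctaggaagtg
YARS2: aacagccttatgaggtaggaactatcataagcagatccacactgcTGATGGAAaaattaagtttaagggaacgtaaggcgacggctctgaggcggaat
They lie at chr16:70289641-70289738, chr12:57488019-57488087, chr11:3057404-3057470 and chr12:32756042-32756139, on the minus, plus, minus and minus strands. The match begins 187 bases before the start of AARS1, 4 before that of MARS1, 2 before that of CARS1 and 197 before that of YARS2. By the gene positions used here, the AARS1 match also lies within DDX19B, a gene on the other strand that starts 120 bases from AARS1.

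AARS1, MARS1 and CARS1 fell, and IARS1, NARS1 and TARS1, whose windows also hold TGATGCAA, rose, so the same 8 letters stood beside changes in either direction. GARS1, with TGATGAAA, did not pass the test. A match is a description of the letters and not evidence of binding. Of other motifs searched on both strands, the ETS site CCGGAAGT was in 8 of the 33 members (4.95% of all genes), the E-box CACGTG in 5 (8.77%), the cyclic AMP response element TGACGTCA in AIMP2 alone (2.25%) and the E2F site TTTGGCGC in EEF1E1 alone (0.795%). HARS1 and HARS2 are both among the 8 with the ETS site, but their windows overlap and hold the same sites. The ratio of observed to expected CpG, the dinucleotide that DNA methylation acts on, was above 0.6 in 32 of the 33 members, against 51.6% of all genes with a window, taking the highest window of each gene. Methylation itself was not analysed here.

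Among the 12 cytosolic synthetases commonly listed as ATF4 targets, 4 rose (IARS1, NARS1, TARS1 and WARS1), 6 fell (AARS1, EPRS1, MARS1, CARS1, SARS1 and YARS1) and GARS1 and LARS1 did not pass. Of the 8 cytosolic synthetases outside that list, 4 rose and 2 fell. Among all tested genes 35.4% rose and 35.1% fell. Without a scaling factor 6 of the 12 listed rose and 4 fell. The falls of SARS1 and YARS1 were then not called, and GARS1 and LARS1 rose. On that scale 6 of the 8 others rose and 1 fell, against 46.2% and 24.9% of all tested genes. ATF4 itself, whose activity is set mainly through translation, went from 169 ± 7.96 to 133 ± 3.33 CPM (log2 -0.34 ± 0.04, edgeR adjusted p = 1.8e-05, n = 3 each). Of the 27 genes of the pathway list outside the synthetases, ATF4 included, 16 rose and 8 fell (median log2 fold change 0.24). ATF3 and DDIT3, stress transcription factors, rose by 2.34 ± 0.10 and 1.68 ± 0.05, and PPP1R15A, which helps restart translation after stress, by 2.21 ± 0.04. DDIT4, an inhibitor of mTORC1, fell (log2 -1.68 ± 0.05), as did the asparagine synthetase ASNS (-0.91 ± 0.08). EIF2AK4, the kinase GCN2 that senses uncharged transfer RNA with a domain resembling the histidine enzyme, went from 76.6 ± 3.32 to 116 ± 2.19 CPM.

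Lists of neighbouring steps gave the following counts, to be read beside the 35.4% of all tested genes that rose and the 35.1% that fell. Without a scaling factor the rises and falls numbered 2 and 6, 13 and 2, 18 and 0, and 7 and 2, in the order of the lists below. On that scale 46.2% of all tested genes rose and 24.9% fell. Of 9 cytosolic elongation factors 7 fell and 1 rose (median log2 fold change -0.50). EEF2, the translocase of the ribosome, went from 2985 ± 64.8 to 1406 ± 14.04 CPM and EEF1A1, which delivers charged transfer RNA, from 8874 ± 684 to 5131 ± 178 CPM, while EIF5A2 rose by 1.34 ± 0.06 on the log2 scale. Of these 7 falls, that of EIF5A changed sign without a scaling factor (log2 0.04). Of 16 mitochondrial translation factors 9 rose and 3 fell (median 0.20). GFM2, a ribosome recycling factor, TACO1, a translational activator, and MTRF1L, a release factor, rose (log2 0.93 ± 0.06, 0.67 ± 0.07 and 0.67 ± 0.05), and the initiation factor MTIF3 fell by 0.66 ± 0.07. Of the 3 falls, that of TSFM changed sign without a scaling factor (log2 0.03). A second was near 0 and not called with limma on log2(TPM + 1) (log2 -0.02, limma adjusted p = 0.74). Of 22 genes of transfer RNA processing and export 15 rose and 3 fell (median 0.29), among them the RNase P subunits RPP40 (0.96 ± 0.10) and RPP30 (0.94 ± 0.06). Without a scaling factor, the 3 falls of this list were not called. Of 13 synthetase-related proteins 5 rose and 3 fell (median 0.05). QRSL1, a subunit of the enzyme that completes glutaminyl-tRNA after EARS2, rose by 0.64 ± 0.05, and TARS3, a second cytosolic threonine enzyme outside the rule, did not pass (12.7 ± 0.751 and 12.9 ± 1.47 CPM).

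**Figure D4:**
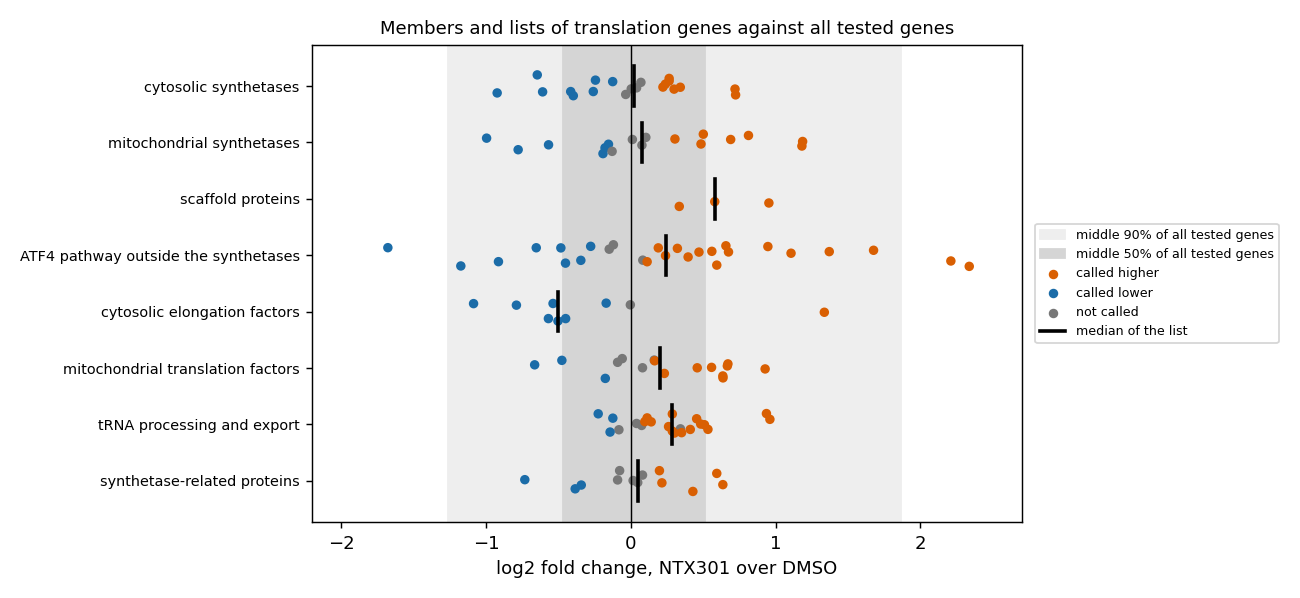
Points are genes, in rows by list, with the log2 fold change on the horizontal axis, coloured by call, and a black bar at each list's median. The shaded bands reach from the 0.25 to the 0.75 quantile (-0.47 to 0.51) and from the 0.05 to the 0.95 quantile (-1.26 to 1.87) of all tested genes. All synthetases lie within the wider band.

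WARS1 is also known as a gene induced by interferon gamma. Its levels were 143, 145.5 and 127.5 CPM with DMSO and 161, 158 and 167 CPM with NTX301, so the DMSO replicate 3 library was the lowest and the groups did not overlap. Of 15 interferon response genes 8 rose and 4 fell (median log2 fold change 0.51), beside 35.4% and 35.1% of all tested genes. IDO1, another target of interferon gamma, went from 0.511 ± 0.226 to 3.002 ± 0.545 CPM, GBP1 from 9.36 ± 0.903 to 32.0 ± 2.88 CPM, and OAS1 from 34.5 ± 2.24 to 13.04 ± 1.54 CPM. IDO1 had only 8 to 18 estimated counts in each DMSO library. GBP2, on the same list as GBP1, fell from 65.8 ± 0.952 to 29.5 ± 1.11 CPM.

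Several members start within 1000 bases of a protein-coding gene on the other strand, an arrangement in which a promoter region can be shared. There were 11 such pairs with both genes tested, and HARS1 with HARS2 is the pair made of 2 members. In 5 pairs both genes were called in the same direction, in 4 in opposite directions, and in 2 at least 1 gene did not pass. Beside these stand 35.4% of all tested genes called higher and 35.1% lower, and no share over arbitrary pairs was computed. Without a scaling factor the numbers of pairs were 6, 2 and 3 in the same order, beside 46.2% and 24.9% of all tested genes. Changes in the same direction included those of CARS2 with ING1, KARS1 with TERF2IP, AIMP2 with PMS2 and AARS1 with DDX19B. ING1, a chromatin reader, had nearly the change of CARS2 (0.84 ± 0.05 against 0.81 ± 0.04). PMS2, a mismatch repair gene that starts 120 bases from AIMP2, rose by 0.53 ± 0.05. DDX19B, an RNA helicase of mRNA export that starts 120 bases from AARS1, fell by 0.45 ± 0.05.

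The opposite pattern was seen for SARS2 and FARS2. MRPS12, a protein of the mitochondrial ribosome whose start overlaps SARS2 by 348 bases, went from 32.3 ± 2.65 to 38.7 ± 3.96 CPM (log2 0.26 ± 0.08, edgeR adjusted p = 0.012) while SARS2 fell to 0.501 of its level (36.7 ± 1.55 to 18.4 ± 1.23 CPM). LYRM4, an iron-sulfur cluster factor that starts 105 bases from FARS2, rose by 0.26 ± 0.08 while FARS2 fell by 0.57 ± 0.09. RARS2 with ORC3 and EARS2 with UBFD1 were also called in opposite directions, but not without a scaling factor, where the members were not called.

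**Figure D5:**
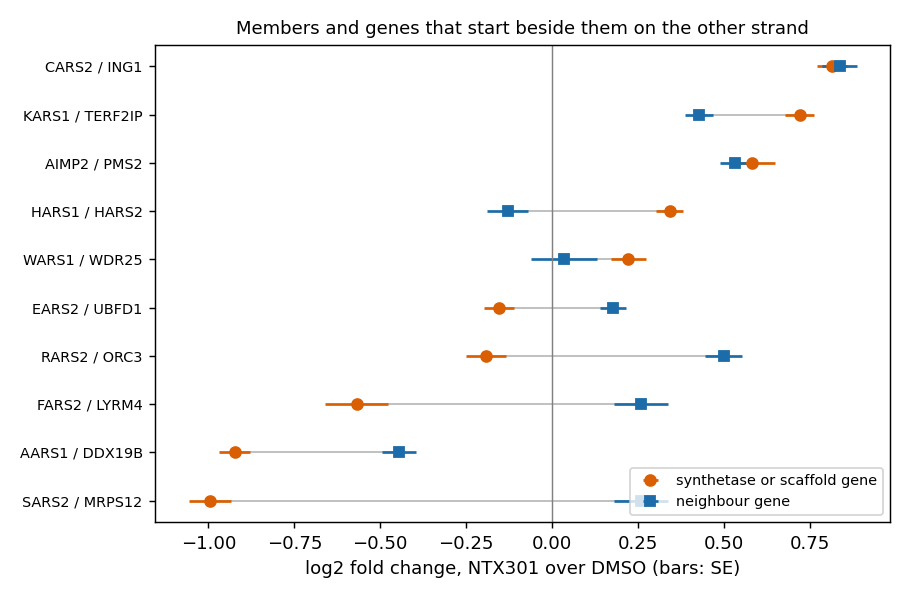
Each row is a named member (circle) and the gene that starts beside it on the other strand (square), with the log2 fold change on the horizontal axis and standard errors as bars. CARS2 and ING1 lie together on the right, and SARS2 and MRPS12 are on opposite sides of 0.

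Whether reads were counted by strand is not stated. Of the members, 17 overlap a tested gene on the other strand and 5 overlap one on their own strand, so reads of such genes may not have been separated. MARS1 and DDIT3 share 982 bases at their ends on chromosome 12 (DDIT3 at 57516588 to 57521737 on the minus strand). DDIT3 had 17.05, 16.2 and 16.7 CPM with DMSO and 54.8, 50.7 and 54.3 CPM with NTX301, while MARS1 had 100.5, 95.7 and 93.5 CPM with DMSO and 74.5, 72.2 and 70.6 CPM with NTX301. DDIT3 rose and MARS1 fell. ARHGAP9, which also overlaps MARS1 on the other strand, had 1.12 ± 0.287 CPM with DMSO and 2.06 ± 0.402 CPM with NTX301 (n = 3 each). The part of shared reads in the MARS1 value was not tested. EEF1E1 overlaps the readthrough transcript EEF1E1-BLOC1S5 on its own strand, which had 1.23 ± 0.605 CPM with DMSO and 1.48 ± 1.17 CPM with NTX301. SARS2 likewise overlaps ENSG00000269547 on its own strand (1.06 ± 1.83 and 1.04 ± 1.11 CPM). Both are low and vary widely between libraries.

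The tables also give, for each gene and library, a mean transcript length weighted by the estimated abundance of its transcripts. In AIMP1 this length was 1899, 1920 and 2025 bases with DMSO and 1633, 1663 and 1653 bases with NTX301, the largest change among the members (-15.3%). In EARS2 it was 4468, 4476 and 4578 bases with DMSO and 4798, 4740 and 4970 bases with NTX301, a change of 7.29%. The LARS1 length went from 3766 ± 48.2 to 3586 ± 18.9 bases (n = 3 each), and all other members changed by less than 4%. These lengths were not tested. TPM divides by these lengths and lacks the scaling factor that CPM has here. AIMP1 went from 56.8 ± 3.03 to 98.5 ± 4.04 in TPM and from 64.8 ± 2.86 to 81.7 ± 2.21 in CPM.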

How the data were processed

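RNA of OVCAR5 cells was sequenced in 3 libraries treated with DMSO and 3 with 100 nM NTX301. Per the labels' protocols, TRI Reagent was used for extraction and the NEBNext Ultra II RNA kit for libraries. A 10 nM dose and methylation arrays that the labels mention were not analysed here. The authors deposited 1 gene table per library, with the columns that RSEM writes, per the file headers: estimated counts (expected counts per gene, not normalized) and TPM (scaled over all genes). Tool versions, genome build, annotation release and strand setting: not given in the sources used here. Reads shared by near-identical genes are apportioned by RSEM.

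The 47 pseudoautosomal entries of chromosome Y (0.0224% of counts) were added to their X copies, and 62639 of 62656 identifiers matched a table of symbols. Positions came from GENCODE 29 (GRCh38), and all 34717 genes whose only transcript has the same version in both had the same length. Expected counts were rounded and tested with edgeR 4.0.16 (filterByExpr, TMM, glmQLFit and glmQLFTest, treatment as the only term, 6 libraries, R 4.3.3), with Benjamini-Hochberg adjustment over 19029 genes and a threshold of 0.05. CPM values are scaled by the totals over tested genes times the TMM factors (0.921 to 1.08). Each standard error is the absolute log2 fold change over the square root of F. The scripts were tested on simulated data in which far fewer genes changed than here. That setting does not check the scaling factor where changes are this common. Alternatives were RLE factors, no scaling, no filter, DESeq2 1.42.0, limma 3.58.1 on log2(TPM + 1) and log2(TPM + 0.1) for genes of mean TPM at least 1, a replicate block and leaving out each library. Chi-square per degree of freedom between libraries of 1 group was 2.37 to 6.57, and none was treated as a duplicate.

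Of the 40 members, 38 are named. The other 2 members, 1 marker gene and 1 gene of another list entered the fits, counts and medians but are not reported here by name. Values per library are given for the named members among the 4 largest changes in each compartment, all scaffolds and the members that did not pass. Means ± SD or log2 fold changes are given for up to 4 genes of each other list, those of largest change, and for the regulators ATF4, ATF3, DDIT3 and EIF2AK4. ASNS, TARS3, EIF5A, TSFM, GBP2 and neighbours of members were named after their values were seen. The members and lists were chosen with earlier results of these data known.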

Additional observations from a re-analysis of the deposited data

How the results depend on the processing

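Of the 40 members, 39 or 40 kept their call or lack of one, and every called member its direction, with RLE size factors, with no filter on low counts, with DESeq2 and with a replicate block, and 38 to 40 did when 1 library was left out. The counts of members called higher and lower were 18 and 15 with the replicate block, and HARS2 was then called lower (log2 -0.13, edgeR adjusted p = 0.028). Deviations of same-numbered libraries from their group means were only weakly correlated (0.08, -0.03 and 0.04, with 2 of 3 numbers highest for their own partner). With 3 numbers, these values cannot tell whether same-numbered libraries were handled together. Without a scaling factor and with limma on log2(TPM + 1) or log2(TPM + 0.1), 8 members were called lower, 5 of them cytosolic and 3 mitochondrial enzymes, and 25 were called higher. All tested genes called lower then numbered 4732 of 19029, 4012 of 17266 and 4008 of 17266, against 6677 of 19029. Those called higher numbered 8793 of 19029, 7493 of 17266 and 7471 of 17266, against 6744 of 19029. The limma settings cover only genes of mean TPM at least 1, and their test differs too. These scales do not centre the typical gene, whose median log2 fold change was 0.206, 0.165 and 0.192.

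Under these settings, in the same order, the log2 fold change of GARS1 was 0.172, 0.181 and 0.182, that of YARS1 0.082, 0.070 and 0.071, that of IARS2 0.028, 0.031 and 0.032, and that of RARS2 0.015, 0.023 and 0.024, all of the opposite sign to TMM scaling. HARS2, not called, was at 0.077 without a scaling factor, and RARS1 and TARS2, not called and near 0, were at -0.025 and -0.017 with no filter; RARS1 also changed sign with DESeq2, and RARS1 or TARS2 when any 1 library other than DMSO replicate 3 was left out. EARS2 was at 0.053 without a scaling factor. The median of the cytosolic enzymes lay near 0 and was -0.007 with no filter and between -0.003 and 0.043 when 1 library was left out (-0.003 without DMSO replicate 2). PARS2 had the fewest counts of the members and the largest standard error (0.11), and depth limits the precision most for this gene.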
